A study of Rattus norvegicus with 12 samples.

Results

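Transcripts of 6 nuclear genes of mitochondrial iron import and iron-sulfur clusters were compared between low Fe and high Fe rat jejunal mucosa. The genes are Slc25a37 and Slc25a28, the mitoferrins, Nfs1, Iscu and Glrx5, proteins of the cluster pathway, and Fdx1, a mitochondrial iron-sulfur protein. They were chosen by name: every probe set with 1 of these symbols as its only platform annotation was taken, which gave 5 probe sets on array type 230A and 3 on 230B, of 15866 and 15276 in all. These 8 entries are 7 distinct probe sets, because the Iscu probe set is on both types. No probe set with several symbols held any of the 6 genes.

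The samples were scrapes of the lining of the jejunum, the middle stretch of the small intestine, from a low Fe group and a high Fe group, with 3 samples each and 12 arrays in all. All titles carry week 12, and the keywords name iron deficiency and anemia. The labels give no strain, sex, diet composition or age, and do not say whether a sample is 1 animal or a pool, so each p-value reflects how far these samples scatter, in part perhaps for technical reasons. A scrape holds epithelium together with blood, immune and stromal cells, and in such bulk RNA fewer cells of a type and less RNA per cell cannot be told apart.

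Iron that reaches a cell is carried across the inner mitochondrial membrane by the mitoferrins. Inside, the desulfurase Nfs1 draws sulfur from cysteine, and sulfur, iron and electrons meet on the scaffold Iscu, where a cluster is formed. Glrx5, a glutaredoxin, passes the new cluster on to recipient proteins such as subunits of the respiratory chain, aconitase and ferrochelatase. Mitochondria use the same iron for heme. In the duodenum and jejunum, the enterocytes are also the cells through which dietary iron enters the body.

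For none of the 6 genes was a difference between low Fe and high Fe mucosa found that exceeded the spread between samples. Of their 8 entries, 7 were bright enough to be tested, and 0 passed an adjusted p of 0.05, 0 had an unadjusted p under 0.05, and in 0 did the groups stand apart without overlap. The 7 limma adjusted p-values ran from 0.572 to 0.978. The background was low as well: 0.0945% of the 9519 tested 230A probe sets passed, and 0% of the 9165 on 230B. An unadjusted p under 0.05 was reached by 6.68% on 230A and by 10.2% on 230B, which was 932 probe sets, and the groups did not overlap for 11.8% on 230A and 17.4% on 230B. With so few passing over the arrays, the absence of the 6 genes among them sets only a limit on size, which the 95% intervals below give.

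**Figure D1:**
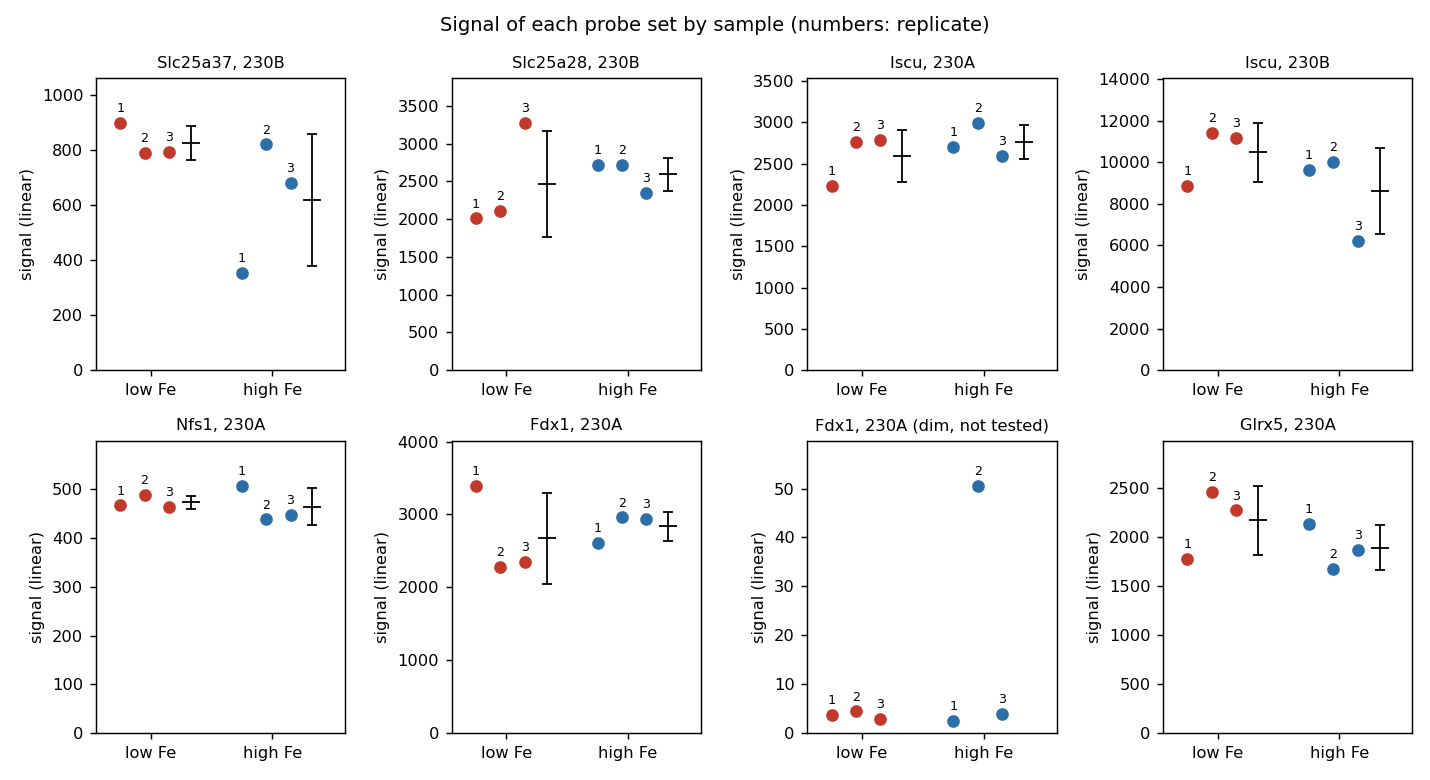
Linear signal (y axis, from 0, own scale in each panel) of the 8 probe set entries in the 3 low Fe (red, left) and 3 high Fe (blue, right) samples; numbers mark the replicate, black bars the mean ± SD, left out for the dim Fdx1 probe set. The groups overlap in every panel, and Slc25a37 has 1 low sample, high Fe replicate 1 at 352.7.

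Slc25a37, mitoferrin-1, is the importer known above all from developing red cells. Its probe set on 230B had signals of 897.4, 787.8 and 791.9 in low Fe samples, against 352.7, 819.3 and 680.5 in high Fe samples. The low Fe samples lay close together and high Fe replicate 1 far below the rest, while high Fe replicate 2 was above low Fe replicates 2 and 3. The mean was 825.7 ± 62.1 in low Fe and 617.5 ± 239.6 in high Fe (SD, n = 3 each). The log2 difference, low Fe minus high Fe on the log2(signal + 16) scale, was 0.49 ± 0.29 (SE), or 1.40-fold, with a 95% interval from 0.883-fold to 2.23-fold (limma adjusted p = 0.572). Without high Fe replicate 1 the log2 difference was 0.14, and without high Fe replicate 2 it was 0.73.

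Slc25a28, mitoferrin-2, is the paralog present in most tissues. On 230B it had signals of 2009.5, 2106 and 3272.4 in low Fe samples, against 2720.2, 2717.5 and 2344.2 in high Fe samples. Here the highest and the lowest values were both low Fe samples, replicates 3 and 1. The log2 difference was -0.11 ± 0.21, or 0.929-fold, with an interval from 0.665-fold to 1.30-fold (adjusted p = 0.870). Leaving out low Fe replicate 3 gave -0.33, and leaving out low Fe replicate 1 gave 0.02. No 230A probe set carried either mitoferrin symbol alone.

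Nfs1 is the sulfur donor of the pathway. Its 230A signals were 467.2, 488.7 and 463.4 in low Fe samples, against 507.7, 438.4 and 447.8 in high Fe samples. All low Fe values fell inside the range of the high Fe values. The mean was 473.1 ± 13.6 in low Fe and 464.6 ± 37.6 in high Fe (SD, n = 3 each), a log2 difference of 0.03 ± 0.13 with an interval from 0.828-fold to 1.25-fold (adjusted p = 0.978). Without high Fe replicate 2 it was -0.01.

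Iscu, the scaffold, was measured by the same probe set on both array types. On 230A its signals were 2235.2, 2758.6 and 2787.1 in low Fe samples, against 2698.1, 2992.4 and 2596.6 in high Fe samples. On 230B they were 8864.7, 11407.5 and 11188.1 in low Fe samples, against 9641.3, 10010.8 and 6236.3 in high Fe samples. The groups overlapped on both, with low Fe replicate 1 lowest on 230A and high Fe replicate 3 lowest on 230B.

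The log2 difference of Iscu was -0.09 ± 0.13 on 230A, with an interval from 0.761-fold to 1.15-fold (adjusted p = 0.896). On 230B it was 0.30 ± 0.21, with an interval from 0.884-fold to 1.72-fold (adjusted p = 0.614). The sign thus differed between array types for the same 6 samples and the same probe set. Without high Fe replicate 3 the 230B value was 0.08, and without low Fe replicate 1 the 230A value was 0.01.

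The 100 probe sets carried by both types give the scale of this disagreement. Their log2 differences were higher on 230B than on 230A by 0.12 at the median, with 10th and 90th percentiles of -0.09 and 0.41. For Iscu the gap was 0.40, and 13 of the 100, Iscu included, had a gap at least that large. The median ratio of 230B over 230A signal was 3.60, 3.84 and 4.0 in low Fe samples, against 3.72, 3.36 and 3.31 in high Fe samples. How far this gap enters the 230B values of Slc25a37 and Slc25a28, which no 230A probe set measures, was not tested.

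Fdx1, also called adrenodoxin, is a mitochondrial iron-sulfur ferredoxin that hands electrons to mitochondrial cytochrome P450 enzymes and to the lipoyl synthase reaction. Its bright probe set on 230A had signals of 3395.8, 2276.9 and 2350.9 in low Fe samples, against 2611.2, 2959.6 and 2934.7 in high Fe samples. Low Fe replicate 1 was the highest of all and the other low Fe samples were the lowest. The log2 difference was -0.11 ± 0.17, with an interval from 0.715-fold to 1.21-fold (adjusted p = 0.911), and -0.29 without low Fe replicate 1.

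The second Fdx1 probe set was dim, at 3.7, 4.4 and 2.9 in low Fe samples, against 2.5, 50.6 and 3.9 in high Fe samples. All of these lie under 106, the signal at which the lowest 40% of 230A probe sets were left out, and it was not tested. Its 1 value apart, in high Fe replicate 2, had no counterpart in the bright probe set.

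Glrx5, which carries clusters from the scaffold to their targets, had 230A signals of 1777.3, 2466 and 2274.9 in low Fe samples, against 2136, 1676.3 and 1867.5 in high Fe samples. Low Fe replicates 2 and 3 were above every high Fe sample, and low Fe replicate 1 was below all but 1 of them. The log2 difference was 0.19 ± 0.16, or 1.14-fold, with an interval from 0.890-fold to 1.46-fold (adjusted p = 0.843). Leaving out low Fe replicate 1 gave 0.33, and leaving out low Fe replicate 2 gave 0.09.

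**Figure D2:**
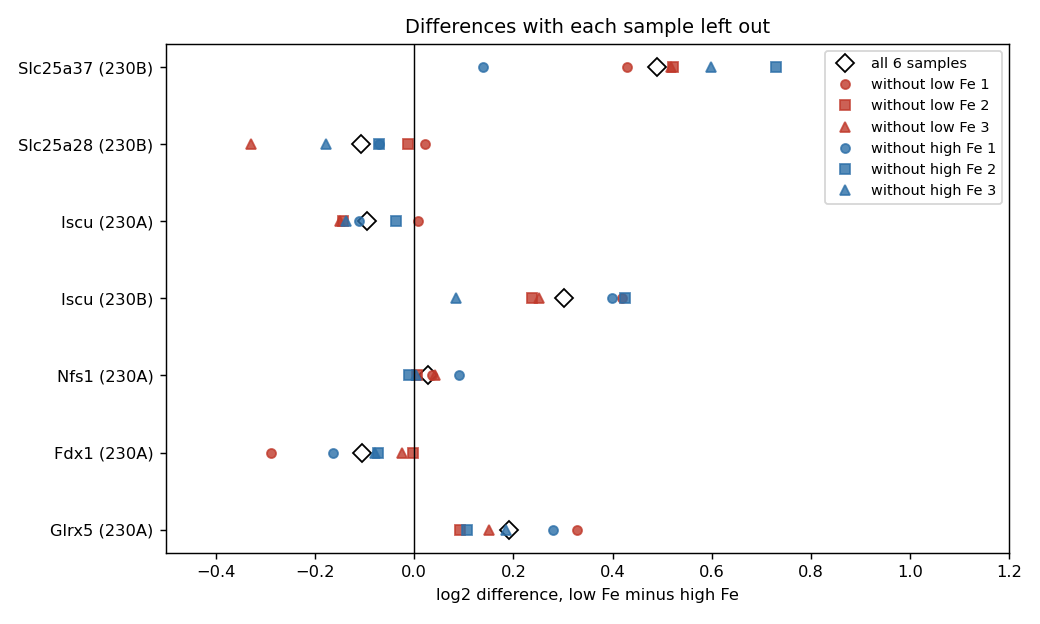
Log2 difference, low Fe minus high Fe (x axis), of the 7 tested entries with all 6 samples (open diamonds) and with each sample left out (red, a low Fe sample; blue, a high Fe sample; symbol shape, the replicate). Slc25a37 runs from 0.14 to 0.73, and Slc25a28, Iscu on 230A and Nfs1 cross 0.

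The intervals can be set beside the iron uptake genes in the same samples. Cybrd1, a ferric reductase of the brush border, Tfrc, the transferrin receptor, and Slc11a2, the apical ferrous iron transporter, had fitted folds of 15.1, 6.70 and 4.56, low Fe over high Fe, for their brightest probe sets. The lower 95% limits of these folds were 9.65, 4.63 and 3.58. Dimmer probe sets of Tfrc and Slc11a2 gave folds of 3.19 and 3.32, with lower limits of 1.67 and 2.20, and did not pass. In the fit with all 6 samples, the upper limits of the 7 entries described above reached at most 2.23-fold, for Slc25a37. That is above the lower limits of the dimmer Tfrc and Slc11a2 probe sets. The lower limits of the 7 entries were at least 0.665-fold, for Slc25a28. These limits hold for that fit only: the Slc25a37 log2 difference was 0.73 ± 0.28 without high Fe replicate 2 and 0.14 ± 0.19 without high Fe replicate 1. The intervals of Nfs1, Iscu, Fdx1 and Glrx5 on 230A lay between 0.715-fold and 1.46-fold.

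**Figure D3:**
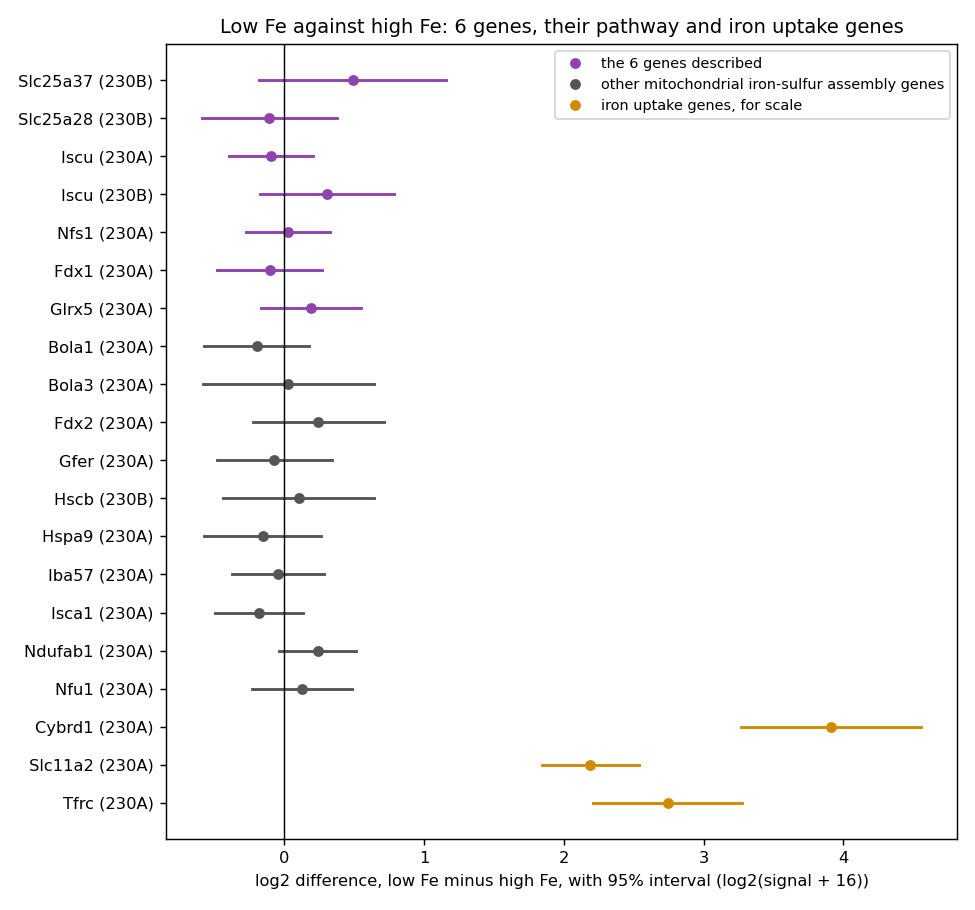
Log2 difference, low Fe minus high Fe, with its 95% interval from limma (x axis) for the 7 tested entries, 10 other genes of mitochondrial iron-sulfur assembly and 3 iron uptake genes. The intervals of the first 17 all include 0. Those of the brightest Cybrd1, Slc11a2 and Tfrc probe sets, from a lower limit of 3.58-fold upward, lie to the right of them. The dimmer Slc11a2 and Tfrc probe sets are not drawn.

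Correlations between the 4 tested 230A genes differed in sign. On log2 values, Glrx5 and Nfs1 had a Pearson r of 0.68, Glrx5 and Iscu 0.21, Iscu and Nfs1 -0.15, Fdx1 and Nfs1 -0.45, Fdx1 and Iscu -0.59, and Fdx1 and Glrx5 -0.91, each over 6 arrays that share their scaling and given as a description only. Between Slc25a37 and Slc25a28 on 230B r was -0.27. Deviations from the group means gave -0.93 for Fdx1 and Glrx5, so their opposite order lay within the groups: low Fe replicate 1 was highest for Fdx1 and low for Glrx5.

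Genes whose signal over the 6 arrays was most like that of each of the 6 were found by the highest Pearson r among the named tested genes of the same array type, 4058 others on 230B and 7050 on 230A. The highest of so many values over 6 arrays is a description only. They were Zfp292 and Pcmtd1 for Slc25a37 (0.994 and 0.991) and Tmem17 and Stt3a for Slc25a28 (0.951 and 0.940). They were Pdcl3 and Brix1 for Iscu (0.997 and 0.994), and Ints6 and Ercc3 for Nfs1 (0.984 and 0.978). Those of Fdx1 were Tgfa and Birc7 (0.995 and 0.993), and those of Glrx5 Srrt and Med15 (0.994 and 0.988).

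The rest of the mitochondrial assembly machinery also gave no call. Of 13 other genes of this list on the arrays, 10 were tested, and 0 passed in either direction. Of these 5 lay above 0 and 5 below, with a median log2 difference of -0.01 and a range from -0.20 to 0.24. Over all tested probe sets the median was -0.02 on 230A and -0.04 on 230B. Of these probe sets 46.9% lay above 0 on 230A and 45% on 230B, the background for counts by sign in this and the later lists. Ndufab1, the acyl carrier protein that is also a subunit of the desulfurase complex, had signals of 2715.7, 3268.3 and 2897.7 in low Fe samples, against 2485.6, 2658.5 and 2366.1 in high Fe samples. These groups did not overlap, as in 11.8% of all tested 230A probe sets, and the log2 difference of 0.24 ± 0.12 did not pass (adjusted p = 0.765). Isca1, an assembly protein of the late steps, gave -0.18 ± 0.14 (0.06 ± 0.18 for a dimmer probe set), and Bola1, which binds Glrx5, -0.20 ± 0.17.

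Fdx2, the ferredoxin that serves cluster assembly itself, gave 0.24 ± 0.21 on 230A and -0.75 ± 0.48 on 230B, and neither passed (adjusted p = 0.848 and 0.579). As for Iscu, the types gave opposite signs, here from different probe sets. On 230B its low Fe signals were 377.7, 331.3 and 96.2, against 286.3 to 525.3 in the 3 high Fe samples. Only low Fe replicate 3 lay outside the high Fe range.

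Iron and heme traffic at the mitochondrion, apart from the mitoferrins, was described by 10 tested genes, of which 0 passed, with a median of 0.04 and a range from -0.19 to 0.61. The upper end was Alas1, the first enzyme of heme synthesis in most cells. Alas1 had signals of 2788.4, 2855.9 and 2336.4 in low Fe samples, against 1840.2, 1765.4 and 1606.7 in high Fe samples. The groups did not overlap, and the log2 difference of 0.61 ± 0.13 did not pass (adjusted p = 0.313). Ppox, protoporphyrinogen oxidase, also did not overlap, at 421.3, 451.9 and 520.6 in low Fe samples, against 403.4, 302.1 and 376.1 in high Fe samples (0.36 ± 0.16, adjusted p = 0.747). Cpox, coproporphyrinogen oxidase, gave 0.41 ± 0.26 on 230B (adjusted p = 0.581).

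Proteins that receive the clusters inside mitochondria were measured by 13 tested genes, 8 above 0 and 5 below, with 0 past the threshold. Their median was 0.00 and their range -0.23 to 0.28. Etfdh, the flavoprotein dehydrogenase that feeds electrons from fat oxidation to ubiquinone, had signals of 1350.6, 1228.4 and 1355.5 in low Fe samples, against 1459.1, 1680.7 and 1502.2 in high Fe samples. It was the only one of the 13 without overlap (-0.23 ± 0.12, adjusted p = 0.768). Ndufv2, a complex I subunit with a cluster, gave 0.22 ± 0.13, Mocs1, a molybdenum cofactor enzyme, 0.28 ± 0.20, and Fech, ferrochelatase, -0.19 ± 0.21. Mitochondrial proteins that hold no cluster gave 0 past of 21 tested and a median of 0.00. Among them Hspd1, a matrix chaperonin, gave 0.41 ± 0.21, Tomm70, an import receptor, 0.27 ± 0.16, Vdac2, an outer membrane channel, 0.20 ± 0.10 and Got2, the mitochondrial aspartate aminotransferase, -0.26 ± 0.11.

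The cytosolic side of the pathway had 0 past of 9 tested assembly genes, with a median of -0.05. Nubp1, a scaffold for cytosolic clusters, was without overlap, at 409.7, 332.7 and 314.5 in low Fe samples, against 414.4, 487.7 and 466.4 in high Fe samples (-0.36 ± 0.15, adjusted p = 0.730). Ciapin1, an electron carrier of the cytosolic pathway, gave -0.27 ± 0.15, Nubp2, the partner of Nubp1, 0.19 ± 0.15 (-0.41 ± 0.19 on 230B) and Ciao2b, a targeting factor, -0.10 ± 0.15. Of 15 tested cytosolic and nuclear cluster proteins 0 passed, 12 lay below 0, and the median was -0.07. Over all tested 230A probe sets 5055 of 9519 lay below 0. Cdkal1, a tRNA-modifying enzyme, had 198.2, 162.7 and 223.3 in low Fe samples, against 257.7, 305.9 and 273.1 in high Fe samples (-0.49 ± 0.17, adjusted p = 0.680). Ercc2, a DNA helicase, also did not overlap (-0.28 ± 0.15), and Dna2, a nuclease-helicase on 230B, gave -0.49 ± 0.36 and Mutyh, a DNA glycosylase, -0.14 ± 0.17.

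**Figure D4:**
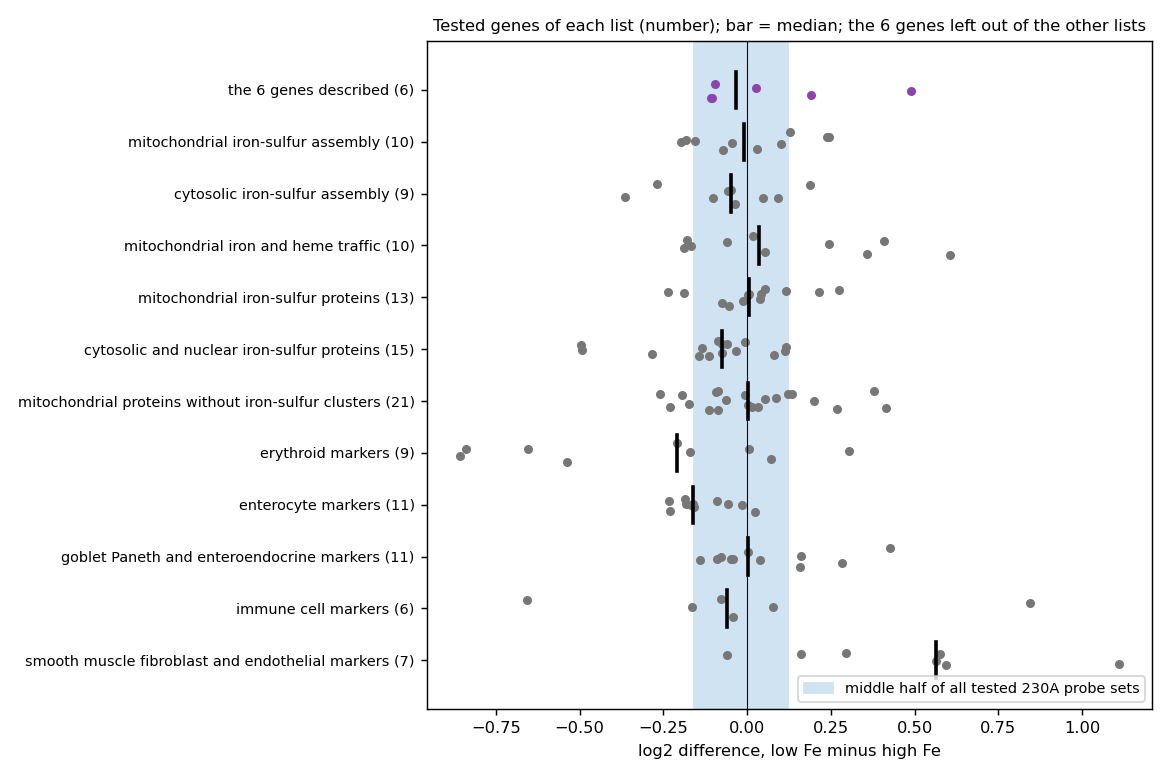
Log2 differences, low Fe minus high Fe (x axis), of the tested genes of each list (rows; number of genes in brackets), 1 point per gene and a black bar at the median; the 6 genes are left out of the other lists. The shaded band runs between the quartiles of all tested 230A probe sets, -0.16 and 0.12. The medians of the 5 iron-sulfur and mitochondrial iron lists, from -0.07 to 0.04, fall inside it. A median over several genes varies less than single probe sets and some genes are on 230B, so this is not a test.

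Markers of the cell types in a scrape were read beside these genes. All 11 enterocyte markers on the arrays, as the tissue label requires, passed the filter on dim signals. Of these 10 lay below 0, with a median of -0.16 and 0 past. The median was 0.0065 without high Fe replicate 2, -0.07 without low Fe replicate 3, -0.25 without low Fe replicate 1 and -0.32 without high Fe replicate 1. The lowest adjusted p among them was 0.679. Their summed signal on 230A was 104614 to 133327 in low Fe samples, against 100863 to 168882 in high Fe samples.

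Erythroid markers were taken because Slc25a37 is abundant in red cell precursors. Of 15 on the arrays 9 were tested, 6 of these lay below 0, the median was -0.21, and 0 passed. Leaving out low Fe replicate 2 gave a median of -0.08, low Fe replicate 3 -0.41 and high Fe replicate 1 -0.35. Leaving out the dimmest 60% of probe sets gave -0.54, a median over fewer of the markers that equals the value of Hbb. After quantile normalization, which gives all arrays the same distribution of signals, the erythroid median was -0.13. Summed signals were 1360 to 1556 in low Fe samples, against 1607 to 1933 in high Fe samples, for 12 genes on 230A, and 1824 to 2547, against 2688 to 2917, for 9 genes on 230B. Only 5 of the 12 and 5 of the 9 were tested, so the sums hold genes under the filter, and some genes count on both types. The 230A sum includes Hbb, with a mean of 571.4 in low Fe and 849.1 in high Fe samples. Hbb, a globin chain, had 606, 511 and 597.1 in low Fe samples, against 636.2, 1016.5 and 894.6 in high Fe samples (-0.54 ± 0.19, adjusted p = 0.680), and Sptb, erythroid spectrin, gave -0.86 ± 0.33, Ank1 -0.65 ± 0.26 (0.40 ± 0.62 for a dimmer probe set) and Gfi1b -0.84 ± 0.43. The 3 tested markers above 0 were Tal1, at 617.5, 558.7 and 562.7 in low Fe samples, against 451, 484.9 and 462 in high Fe samples (0.30 ± 0.17, adjusted p = 0.548), Bpgm (0.07 ± 0.18) and Slc4a1 (0.01 ± 0.19). These 3 were named after their values were seen, and the Tal1 groups did not overlap. The erythroid sums were lower in low Fe samples, with no test. After scaling to the hybridization controls the erythroid median, over 5 genes on 230A and 4 on 230B, was 0.11 and the enterocyte median, over 9 and 2, was 0.19, when those of all tested probe sets were 0.34 on 230A and 0.14 on 230B. The lowest erythroid value was 4.4, far under the filter boundaries of 106 on 230A and 182.9 on 230B, so not every marker can be taken as detected. The part of red cells in the Slc25a37 signal was not tested.

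Of 12 smooth muscle, fibroblast and endothelial markers on the arrays 7 were tested. Of these 6 lay above 0, against 46.9% of all tested 230A probe sets, with a median of 0.56 and 0 past. The sum of all 12 on 230A, tested or not, was 1860 to 2780 in low Fe samples, against 1573 to 2072 in high Fe samples. Their median was 0.23 without low Fe replicate 2, 0.34 without high Fe replicate 1, 0.38 without low Fe replicate 3 and 0.29 with the dimmest 60% of probe sets left out. The smallest p-values belonged to Smtn (1.11 ± 0.29), Col1a2 (0.57 ± 0.19), Des (0.59 ± 0.22) and Acta2 (0.29 ± 0.19). In high Fe samples Smtn had 75.1, 48.3 and 114.9, Col1a2 79.6 to 94.7 and Des 74.2 to 129.9. These lie near or under the 230A filter boundary of 106. Goblet, Paneth and enteroendocrine markers had 0 past of 11 tested and a median of 0.00, led by Lyz2 (0.43 ± 0.25). Immune markers had 0 past of 6, a median of -0.06, and Cd8a at -0.66 ± 0.19 and Jchain at 0.85 ± 0.57. The part of these cells in the 6 genes was not tested.

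The ratio of 5' to 3' signal for the GAPDH controls, which falls when RNA is degraded, divided the 230A arrays into a lower set (0.794 to 0.811; low Fe replicates 2 and 3, and high Fe replicate 1) and a higher set (0.876 to 0.922). The sets were formed on 230A and applied to the same samples on 230B, where the ratios do not part in this way: low Fe replicate 3 of the lower set had 0.873 and low Fe replicate 1 of the higher set 0.877. Within the lower set the Slc25a37 log2 difference was 1.13, and within the higher set 0.26, each from 3 arrays with no test. The only high Fe array of the lower set is replicate 1, with the low Slc25a37 signal of 352.7, so the 1.13 rests on that 1 sample. With the sets as a block in the fit it was 0.69 ± 0.24, which did not pass (adjusted p = 0.515). For Glrx5 the values were 0.15 and 0.01, for the bright Fdx1 probe set -0.17 and 0.20, and for Nfs1 -0.09 and 0.07. Iscu gave 0.04 and -0.32 on 230A, and 0.23 and 0.17 on 230B. Slc25a28 gave -0.05 and -0.33. The same ratio for beta-actin was 0.054 on 230A and 0.047 on 230B in low Fe replicate 3, against 0.591 to 0.836 and 0.499 to 0.896 on the other 5 arrays of each type. This sample had the highest Slc25a28 signal. Without it the log2 differences were -0.33 for Slc25a28, 0.52 for Slc25a37, -0.15 and 0.25 for Iscu on 230A and 230B, 0.04 for Nfs1, -0.03 for Fdx1 and 0.15 for Glrx5.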

How the data were processed

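RNA from 3 low Fe and 3 high Fe samples, assigned from their titles, had been hybridised to Affymetrix 230A and 230B rat arrays. The deposited tables hold 1 linear intensity per probe set and array. Their software: not given in the sources used here. As the numbers show, the authors had scaled every array to a trimmed mean (2% off each end) of 500.1 to 500.2, which hides any change common to most genes, and types are not on 1 scale.

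Values were transformed as log2(signal + 16), the dimmest 40% by mean were left out per type (boundary 106 on 230A and 182.9 on 230B), and each type was fitted by itself for low Fe minus high Fe using limma 3.58.1 under R 4.3.3 (lmFit, then eBayes with a trend). P-values were Benjamini-Hochberg adjusted over all tested probe sets of a type, with a threshold of 0.05. The scale understates changes of dim genes. The fit was tested on simulated data.

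Names come from the platform annotation, and 12748 and 7524 of the 12783 and 7564 probe sets with 1 symbol matched RefSeq by gene identifier. A gene of a list is represented by its brightest tested probe set, on 230A where it was tested there. The number of arrays limits precision. Median signals were 154 to 176 on 230A. On 230B they were 259.5 to 274.9 in low Fe samples, against 282.8 to 302.6 in high Fe samples. No arrays were identical.

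The rule named all probe sets of the 6 genes, up to 4 genes of each list by smallest p, and the 2 genes most like each. Fdx2, Tal1, Bpgm, Slc4a1 and the iron uptake genes were named outside it, after their values were seen. The genes and lists were chosen with earlier results of these data known. Deviations of same-numbered samples from their group means correlated at -0.36 to -0.10, so no block was used. Alternatives were other pseudocounts, filters, scalings and eBayes settings, blocks, and each sample left out.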

Additional observations from a re-analysis of the deposited data

How the results depend on the processing

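The count of passing probe sets among the 6 genes was 0 on both array types under every alternative tried, and the smallest adjusted p any of their entries reached was 0.3999 (Fdx1). The count over all 230A probe sets was 9. It was 33 after scaling to the hybridization controls, 14 when the GAPDH sets formed a block, 15 at a threshold of 0.1 and 4 with the replicate number as a block, and ran from 5 (without low Fe replicate 2) to 21 (without low Fe replicate 1) with 1 sample left out. On 230B it was 0, and 4 after scaling to the hybridization controls. The titles alone do not show that same-numbered samples belong together, and the replicate block changed no call among the 6 genes.

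Scaling to the hybridization controls moved the median log2 difference of all tested probe sets to 0.34 on 230A and 0.14 on 230B. High Fe replicate 2 stood apart in the mean log2 signal of these controls. It had 10.26 on 230A, against 9.23 to 9.52 on the other arrays, and 11.98 on 230B, against 11.15 to 11.40. Under this scaling Slc25a28 was 0.084, Iscu on 230A 0.28 and Fdx1 0.27, the opposite sign, and none of these exceeded the shift of its type. With the GAPDH sets as a block Nfs1 was -0.0083, Fdx1 0.015 and Slc25a37 0.69 ± 0.24 (adjusted p = 0.515). With 1 sample left out, Slc25a37 ran from 0.14 to 0.73, Slc25a28 from -0.33 to 0.021, Iscu on 230A from -0.15 to 0.0080 and its 230B entry from 0.08 to 0.43, Nfs1 from -0.011 to 0.091, Fdx1 from -0.29 to -0.0025 and Glrx5 from 0.09 to 0.33. The cause of these moves was not tested. Among the list medians, 16 of 132 values with all samples and 4 of 72 with 1 left out moved by more than the spread between samples.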
